A study of Mus musculus with 22 samples.

Results

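Early Nascent Mesoderm is 1 of 25 cell type names that the authors gave to the cells of gastruloids, aggregates of mouse embryonic stem cells that mimic early development in a dish. The cells described here were those whose cluster in the authors' deposited cell table carries that name, and their counts were read from the matrices by lane and barcode. The rule found 2275 cells among 77674, or 2.93%. Of these, 1942 (85.4%) came from day 3, 916 could be traced to 1 gastruloid and 212 were called doublets by their gastruloid barcodes.

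The study followed gastruloids over time by single-cell RNA sequencing (10x Chromium, 3' ends of transcripts). All gastruloids were grown from 1 cell line, E14Tg2A: 300 cells were seeded per well, aggregated for 48 h, and then received 3 µM of the GSK3 inhibitor CHIR99021, which switches on Wnt signalling. Every group therefore shares the line and the Wnt pulse, no untreated group was analysed here, and the groups differ in day and experiment. The 10X experiment gave 1 lane each of day 3 and day 4 with no record of which gastruloid a cell came from. In MULTI-seq, cells of each gastruloid are tagged with their own lipid-anchored oligonucleotide before pooling, so that the gastruloid serves as the replicate and the lanes of a pool are technical splits. Gastruloids with calls were of day 3 (24, 2 lanes), days 3.5 and 4 (16 each, 1 pool over 4 lanes) and days 4.5 and 5 (16 each, 1 pool) in MULTI-seq 3, of days 4 and 4.5 (11 and 12) in MULTI-seq 2, and of day 5 (24) in MULTI-seq 1. The labels do not say whether the gastruloids of an experiment came from separate cultures, so p-values measure only the spread between these gastruloids.

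In the embryo, nascent mesoderm forms when epiblast cells move through the primitive streak, lose their epithelial contacts and spread between the outer layers. Wnt, Nodal and FGF signals drive this step: T and Eomes are the main T-box factors of the streak, and Mesp1 follows in cells that leave it, among them the precursors of heart and head mesoderm. Snai1 represses the E-cadherin gene Cdh1 as cells detach, Mixl1 is a homeobox target of Nodal in mesendoderm, and Msgn1 is a bHLH factor of Wnt-driven paraxial mesoderm.

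Lanes held 64703013 to 307883815 UMIs in all, UMIs being single RNA molecules counted once. In the day 3 lanes A and B of MULTI-seq 3 the median Early Nascent Mesoderm cell had 31194 and 30206.5 UMIs, against 29742 and 28710 in the other cells, and 54.0% and 47.5% of the cells had a gastruloid call, against 51.1% and 45.1% of all cells of these lanes. Between them these lanes shared 8 of 12086 barcodes, and 1 Early Nascent Mesoderm barcode occurred in more than 1 lane of the series.

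Promoter sequence is given for genes on which the results turn: Mesp1 and Msgn1, markers of the name, T and Sp5, targets of Wnt signalling that fell with time, and Epcam, an epithelial adhesion gene that fell. The entries are from RefSeq on GRCm38.p6 (the deposited counts used mm10, per the submitters' processing notes), read 5′ to 3′ on the gene's strand. Of 8 genes looked up, 6 had an entry and Mixl1 and Cdh1 had none. The entry of the marker Snai1, which held 1 E-box (CACCTG), is not printed. Bases inside annotated exons were left out, except in the Mesp1 windows, so the sequences of T, Sp5 and Epcam end at the annotated start and that of Msgn1 ends 24 bases before it. Capitals mark CTTTGAT, a core of the sites of TCF and LEF factors, or CAGGTG, an E-box of the kind that Snail factors bind, each searched on both strands (ATCAAAG and CACCTG in reverse), with no overlap between matches. Among 32851 promoter windows of 250 bases, 1053 (3.21%) held the first motif and 5657 (17.2%) the second. The start of Mesp1 and both of its matches lay inside an exon of a second annotation, so only the 30 bases around each match are given, first the E-box (chr7:79793699-79793728, minus strand) and then the TCF motif (chr7:79793604-79793633, minus strand).
Mesp1 E-box: ccaaatatggtcCAGGTGgagcagactgga
Mesp1 TCF motif: ggctcgagccggCTTTGATatgctgatgaa
Msgn1 (chr12:11208973-11209198, minus strand): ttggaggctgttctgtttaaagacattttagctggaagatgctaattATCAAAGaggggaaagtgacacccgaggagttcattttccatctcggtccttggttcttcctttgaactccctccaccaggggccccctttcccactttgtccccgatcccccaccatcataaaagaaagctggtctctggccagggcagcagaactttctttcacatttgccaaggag
T (chr17:8434173-8434422, plus strand): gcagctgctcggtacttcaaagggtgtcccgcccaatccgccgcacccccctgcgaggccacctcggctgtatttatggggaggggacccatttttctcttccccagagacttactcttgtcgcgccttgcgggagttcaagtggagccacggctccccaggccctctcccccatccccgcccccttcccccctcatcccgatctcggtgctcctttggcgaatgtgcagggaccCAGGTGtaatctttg
Sp5 (chr2:70474673-70474922, plus strand): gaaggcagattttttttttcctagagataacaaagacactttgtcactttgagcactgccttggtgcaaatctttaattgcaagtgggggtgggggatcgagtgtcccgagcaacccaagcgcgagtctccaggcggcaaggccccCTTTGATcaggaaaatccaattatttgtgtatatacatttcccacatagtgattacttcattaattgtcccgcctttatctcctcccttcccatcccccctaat
Epcam (chr17:87635729-87635978, plus strand): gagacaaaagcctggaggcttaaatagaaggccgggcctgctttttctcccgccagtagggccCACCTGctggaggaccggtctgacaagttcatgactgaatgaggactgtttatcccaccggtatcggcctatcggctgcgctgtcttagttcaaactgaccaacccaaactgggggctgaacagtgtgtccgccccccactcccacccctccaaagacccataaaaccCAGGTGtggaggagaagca
Mesp1 held both motifs, Msgn1 and Sp5 the TCF motif, T 1 E-box and Epcam 2 E-boxes. A match is a description of these letters and was not tested as a site.

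At day 3 the cells carried 3 of the 4 markers of their name at high levels, Mesp1, Mixl1 and Snai1, and little Msgn1. Names of cell types rest on gene expression, so the levels by type are a description with no test; they are CPM, the UMIs of a gene in the summed cells of a gastruloid scaled to a fixed total, over gastruloids with at least 5 such cells. Mesp1 stood at 147 CPM in the lowest, 453 in the median and 730 in the highest of the 24 gastruloids, with a mean of 436 ± 131 (SD). The next type was Anterior Primitive Streak at 97.1 ± 87.2 CPM (n = 11), followed by Early Posterior PSM (presomitic mesoderm) at 29.8 ± 25.4 (n = 19) and Primitive Streak at 25.0 ± 13.8 (n = 24). The ranges of Mesp1 in the first 2 types overlapped, and those of the last 3 did too.

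Mixl1 averaged 330 ± 72.0 CPM in Early Nascent Mesoderm and 276 ± 93.9 in Anterior Primitive Streak, which do not differ beyond their spread, and 64.2 ± 15.4 in Primitive Streak. Snai1 averaged 70.9 ± 20.4 CPM, with Early Posterior PSM next at 53.1 ± 28.8 and overlapping ranges, whereas Primitive Streak held 8.04 ± 2.29. Msgn1 was low: 6.38 ± 4.40 CPM, with 4 of 24 gastruloids at 0, below the 24.2 ± 13.4 of Early Posterior PSM and above the 1.05 ± 0.652 of Primitive Streak. After each cell was thinned to 10000 UMIs (shallower cells left out per lane were 2 of Early Nascent Mesoderm, 6 of Primitive Streak and, in lanes A and B, 4 and 2 of Early Neurectoderm), Mesp1 had a UMI in 80.8% and 78.8% of Early Nascent Mesoderm cells of lanes A and B, against 11.5% and 11.2% of Primitive Streak cells. The 600 and 706 Early Nascent Mesoderm cells counted here include 35 and 145 that the barcode calls mark as doublets. Early Neurectoderm cells, which should lack Mesp1, gave 0.823% and 0.749%. Without thinning the Mesp1 shares were 90.0% and 89.5%. Msgn1 had a UMI in 5.69% and 4.97% of the thinned cells. Mesp1 and Mixl1 UMIs occurred together in 70.6% and 69.3% of cells, and Mesp1 with T in 71.7% and 67.9%. Mixl1 was about as frequent in cells with a Mesp1 UMI (87.4% and 87.9%) as in those without (87.8% and 87.2%). T was less frequent with Mesp1 (88.8% and 86.1%) than without it (95.7% and 89.3%), with a smaller gap in lane B. Eomes was more frequent with Mesp1 (82.4% and 81.3%) than without it (66.1% and 70.5%). So was Snai1 (48.9% and 49.6% against 36.5% and 38.9%). Cdh1 was less frequent with Mesp1 (12.6% and 10.3% against 17.4% and 18.8%). Pou5f1 differed little (97.7% and 96.4% against 99.1% and 96.6%). These gaps were not tested.

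**Figure D1:**
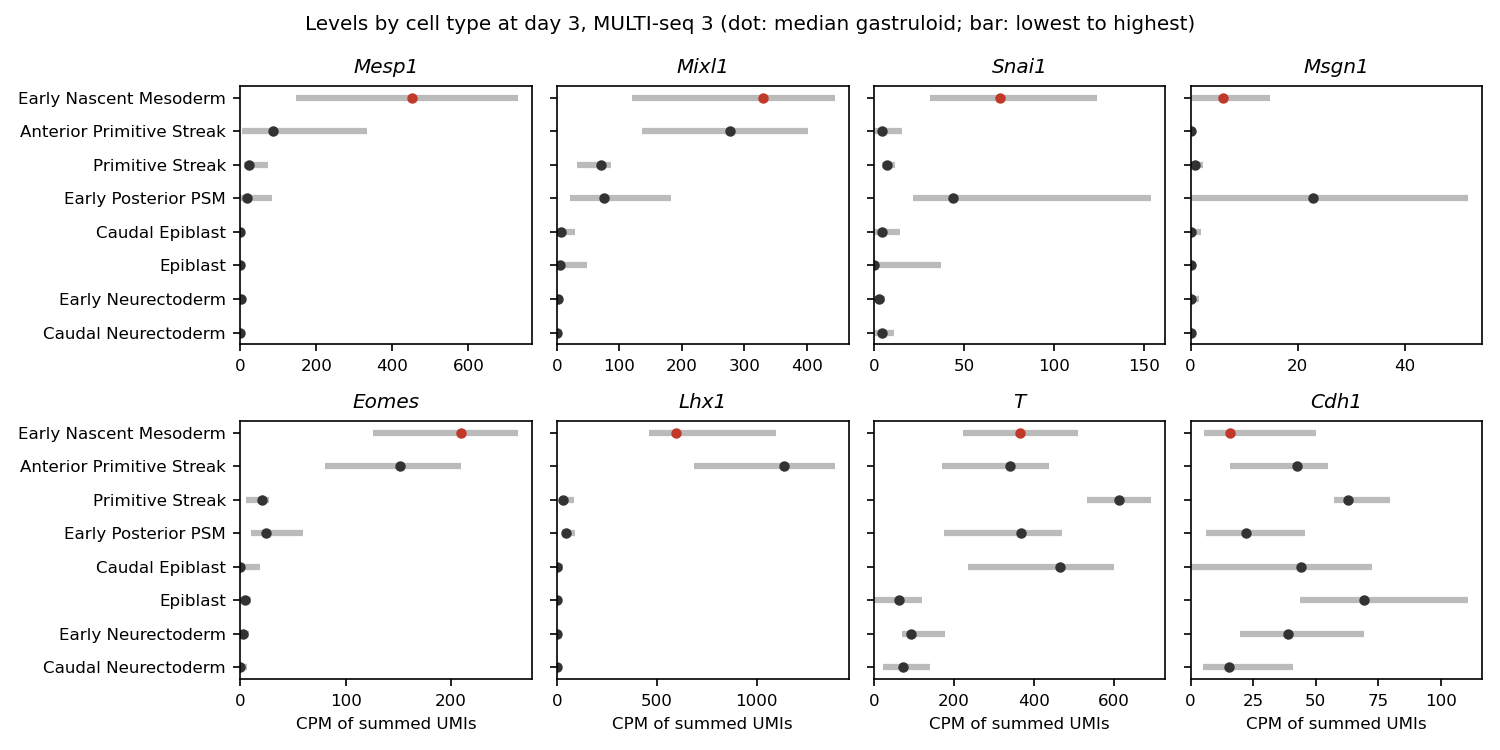
Levels of 8 genes by cell type at day 3 of MULTI-seq 3, in CPM of summed UMIs on the x axis; dots are the median gastruloid and bars run from the lowest to the highest, with Early Nascent Mesoderm in red. Mesp1, Mixl1 and Eomes are highest in Early Nascent Mesoderm, Msgn1 and T are not.

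Against Primitive Streak cells of the same 24 gastruloids, 52 of 2755 genes (1.89%) averaged at least 1 higher on the log2(CPM + 10) scale and 24 (0.871%) at least 1 lower, among genes with a mean of 50 CPM in either type. Differences on this scale understate the change of low genes. Lhx1, a LIM homeobox factor of the organizer region and early mesoderm, led with a difference of 3.92 ± 0.50 (631 against 33.2 CPM, higher in 24 of 24 gastruloids). Mesp1 followed at 3.69 ± 0.54. Fn1, which encodes the matrix protein fibronectin, differed by 3.18 ± 0.29 (619 against 59.8 CPM), the Nodal co-receptor gene Tdgf1 by 2.92 ± 0.44 (522 against 61.8) and Eomes by 2.89 ± 0.32 (207 against 19.5). In all 24 gastruloids Gata6, a GATA factor of endoderm and heart mesoderm, was also higher (2.52 ± 0.44), as were the Wnt antagonist Frzb (2.65 ± 0.32), the forkhead gene Foxc1 (2.27 ± 0.31) and the Wnt target Sp5 (2.05 ± 0.34, 337 against 73.3 CPM). T itself was lower by 0.74 ± 0.27 (368 against 612 CPM), so these 2 Wnt targets stood on opposite sides of Primitive Streak.

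Cadherins and epithelial genes differed in opposite directions: Cdh2 (N-cadherin) averaged 249 ± 32.1 against 56.9 ± 11.5 CPM and Cdh11 65.2 ± 18.5 against 2.78 ± 1.30, while Cdh1 averaged 17.7 ± 9.76 against 64.7 ± 5.66 and Epcam 145 ± 38.6 against 384 ± 23.7. Each of these 4 genes had its direction in 24 of 24 gastruloids. Over all list members, also those below 50 CPM that the shares above leave out, 6 of 18 genes of the mesenchymal side of the epithelial to mesenchymal transition were at least 1 higher, and 3 of 17 of the epithelial side at least 1 lower. Among members with 50 CPM or more these were 4 of 7 and 2 of 4. Vim (vimentin) and Snai2 were close in both types, at 159 against 138 CPM and 1.16 against 1.46 CPM. Cdh1 and Cdh2 UMIs were found together in 11.4% and 11.1% of thinned cells of lanes A and B, called doublets included. Cdh2 was found in 84.0% and 91.8% of cells with a Cdh1 UMI, and in 88.2% and 88.7% of those without. Of 16 genes of nascent and lateral mesoderm, 10 were at least 1 higher (6 of the 8 with 50 CPM or more), among them the PDGF receptor gene Pdgfra (28.5 against 0.989 CPM), the apelin receptor gene Aplnr (68.8 against 11.3), the Nodal inhibitor Lefty2 (58.3 against 3.24) and the Notch ligand Dll1 (64.0 against 12.2). Lower genes included Nkx1-2 (5.10 against 61.5 CPM), Cdx2 (13.3 against 88.8), Sox3 (1.91 against 20.1) and Utf1 (1.43 against 20.8). Of 12 epiblast genes 3 were at least 1 lower (1 of the 5 with 50 CPM or more) and 2 at least 1 higher (1 of 5), Tdgf1 and Otx2 (37.4 against 8.58 CPM), and of 24 Cdx and Hox genes 1 was at least 1 lower, Cdx2, and 0 higher. Pou5f1, the pluripotency factor Oct4, was still at 522 ± 62.4 CPM, against 774 ± 39.5 in Primitive Streak.

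Anterior Primitive Streak was the type nearest in Mixl1, Eomes and Lhx1 and could be compared in 11 gastruloids, a comparison added after the data were seen. Among 2755 genes, 25 (0.907%) were at least 1 higher in Early Nascent Mesoderm and 20 (0.726%) at least 1 lower. Endoderm genes were lower: 9 of 12 on the definitive endoderm list by at least 1, and 8 of the 9 with 50 CPM or more. The endoderm factor Sox17 stood at 1.79 against 181 CPM (-3.66 ± 1.44), Foxa2 at 9.79 against 143 (-2.97 ± 0.58, lower in 11 of 11) and Hhex at 9.50 against 54.9. Gsc, an organizer homeobox gene, was lower as well (110 against 293 CPM). The higher genes included Snai1 (74.4 against 5.72 CPM, 2.48 ± 0.54), Gas1, a membrane protein of Hedgehog signalling (314 against 38.5), Dll1 (59.9 against 6.70) and Mesp1 (417 against 97.1, higher in 10 of 11). Msgn1 was at 0 in all 11 Anterior Primitive Streak sums. With at least 10 cells of both types required, 73 genes passed a difference of 1 in either direction, against 45 here.

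Early Posterior PSM was the other mesodermal type of day 3, and 25 of 2727 genes (0.917%) were at least 1 higher and 15 (0.55%) at least 1 lower in Early Nascent Mesoderm over 19 gastruloids. Mesp1 (3.65 ± 1.08), Lhx1 (3.43 ± 0.46), Gsc (3.15 ± 0.45) and Eomes (2.70 ± 0.47) were higher in 19 of 19. The segmentation clock gene Hes7 (13.9 against 77.7 CPM), the paraxial factor Tbx6 (30.3 against 72.4), Cdx2 (14.3 against 78.6) and Hoxb1 (23.5 against 100 CPM) were lower in 19 of 19. Snai1 differed by 0.39 ± 0.79 and Cdh1 by -0.24 ± 0.71, both less than 1 SD. At day 4, the cells could be set beside Late Nascent Mesoderm in 6 gastruloids, where 24 of 3235 genes (0.742%) were at least 1 higher and 24 (0.742%) at least 1 lower. Mixl1 (217 against 22.9 CPM), T (96.8 against 15.9), Fgf8 (217 against 48.6) and the haematopoietic cofactor gene Lmo2 (76.6 against 10.4) were higher in 6 of 6. Of 18 presomitic and somitic genes 4 were at least 1 lower and 2 at least 1 higher (3 and 1 of the 8 with 50 CPM or more), with a median of -0.07 against -0.03 over all genes. Tcf15 (4.49 against 85.7 CPM), Ripply2 (1.42 against 52.1) and Mesp2 (9.82 against 39.1) were lower in 6 of 6, while Tbx6 (difference 1.06 ± 0.31) and Hes7 (1.34 ± 0.68) were higher in 6 of 6. Mesp1 (-0.62 ± 0.93) and Snai1 (0.00 ± 0.34 on rounding) did not separate these 2 types.

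At day 3 the 14 neurectoderm genes summed to 46.3 to 105 CPM with Sox1 at 0, the 7 primordial germ cell genes to 0 to 41.7 with Dppa3 at 0, and the 14 endothelium and blood genes to 14.8 to 78.3, with 6 of them at 0, among them Tal1 and Gata1. The 12 definitive endoderm genes, which include Epcam and Gsc, had sums of 222 to 509 CPM at day 3; the range was 156 to 438 at day 3.5, and 249 to 1033 at day 4, where the median was 420 against 177 in Late Nascent Mesoderm. The 18 cardiac and pharyngeal mesoderm genes had sums from 65.1 up to 219 CPM on day 3; on day 3.5 their range was 214 to 285 CPM, and day 4 gave 307 to 636. The endothelium and blood sum rose in range to 85.7 to 150 CPM at day 3.5, where 5 of 14 were at 0, among them Cdh5 and Tie1. On each of these days 10 of the 14 averaged under 1 CPM, so the sum rests on few members. These sums were not tested. In the gene tests of day 3.5 against day 3 below, 2 of 4 cardiac and pharyngeal genes tested rose and 0 fell. Of 3 endothelium and blood genes 1 rose (Lmo2) and 0 fell, and of 6 definitive endoderm genes 1 rose and 2 fell. Of all genes tested there, 23.3% rose and 23.8% fell.

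The authors also mapped every cell onto an embryo reference, which like the names of cell types rests on gene expression. Of the 1306 day 3 cells of MULTI-seq 3, 1093 mapped to nascent mesoderm (83.7%, exact 95% interval 81.6 to 85.7), 12.6% to primitive streak and 3.68% to anterior primitive streak. These intervals cover counting error only. Over gastruloids the nascent mesoderm share was 79.1 ± 12.4% (n = 24). In lane A, cells mapped to nascent mesoderm held 520 CPM of Mesp1 and 37.1 of Pdgfra, and those mapped to primitive streak 278 and 4.62; in lane B the values were 480 and 37.0 against 234 and 4.55. T ran the other way, at 318 against 461 CPM in lane A and 323 against 459 in lane B, as did Foxa2 (5.91 against 45.4, and 7.41 against 45.9). The reference stage E7.25 took 19.5% of pooled cells at day 3, 55.7% at day 3.5 and 50.0% at day 4. E7.0 took 78.9%, 31.7% and 32.9%. The day 3 cells include those without a gastruloid call, and days 3 and 3.5 came from different pools. Over gastruloids E7.25 ran from 0 to 30.8%, 29.4 to 65.5% and 33.3 to 66.7% on these days. E7.0 ran from 66.7 to 100%, 18.2 to 70.6% and 11.8 to 53.3%. For both stages, the ranges of days 3 and 3.5 overlapped. At day 3.5 the share mapped to nascent mesoderm was 98.7 ± 3.44% over 7 gastruloids.

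Early Nascent Mesoderm was most abundant at day 3 and was gone from the sampled cells by the end of the series. At day 3 it made up 2.72% of the cells of the lowest gastruloid, 8.16% of the median and 27.0% of the highest, with a mean of 11.1 ± 7.32% (n = 24). At day 3.5 the lowest, median and highest shares were 0%, 0.558% and 10.9% (2.81 ± 3.62%, n = 16): 10 gastruloids had such cells and 5 exceeded 5%. At day 4 they were 0%, 0.238% and 1.79% (0.568 ± 0.657%, n = 16, 76 of 13750 cells). Within MULTI-seq 3, day 3.5 overlapped each of the other days, days 3 and 4 did not overlap, and every day 3 gastruloid had cells of the name.

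From day 3.5 to day 4, within 1 pool, the mean share fell by 2.25 percentage points (two-sided permutation test with 100000 resamples, adjusted p = 0.0228 over 20 types). Of the 16 day 4 gastruloids, 10 lay below the day 3.5 median and 6 above it, and none reached the 5% that 5 day 3.5 gastruloids exceeded. Day 4 of MULTI-seq 2 gave 1.01 ± 1.74% (n = 11, 13 of 1510 cells, 4 gastruloids with any). Its highest share, 5.41%, lies inside the range of day 3 but rests on 4 of 74 cells. The next was 2.80% (4 of 143 cells). The permutation test did not separate day 4 of MULTI-seq 3 from that of MULTI-seq 2 (difference -0.443 points, adjusted p = 0.671). At day 4.5 of MULTI-seq 2, 1 of 2707 cells had the name, a difference of -0.972 points from day 4 (permutation test, adjusted p = 0.0717), which passed on the centred log ratio scale (adjusted permutation p = 0.0356) and in edgeR on cell numbers (adjusted p = 0.00142). In MULTI-seq 3 the counts were 0 of 4588 at day 4.5 and 0 of 11075 at day 5, which allow shares of up to 0.0654% and 0.0271%, and in MULTI-seq 1 at day 5 0 of 9634, up to 0.0311%. Those limits rest on 3 counts and cover counting error only.

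**Figure D2:**
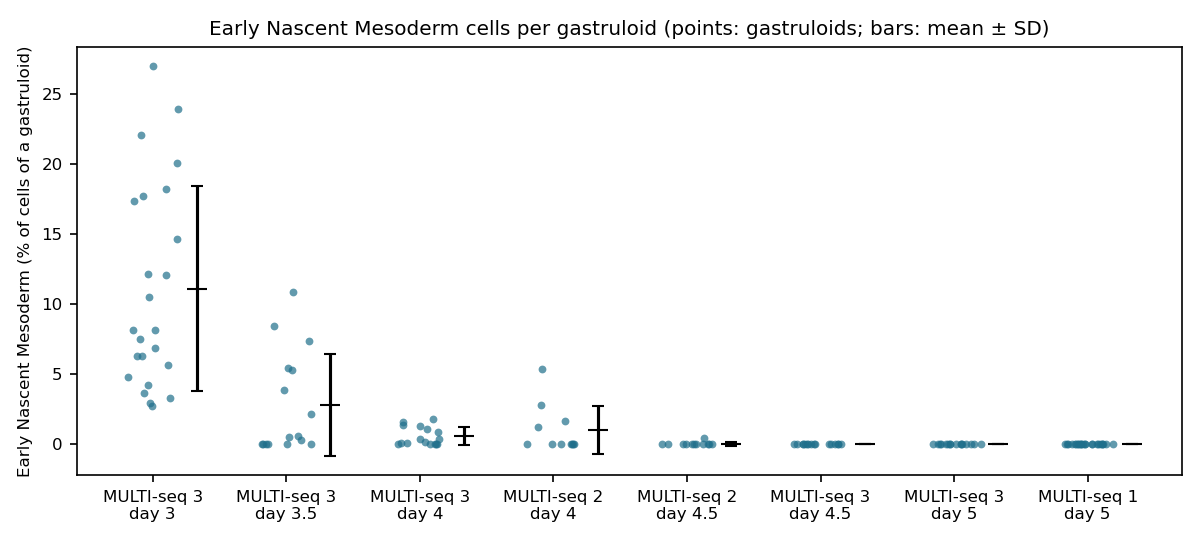
Share of Early Nascent Mesoderm cells in percent of the cells of each gastruloid (y axis), by experiment and day; points are gastruloids and bars mean ± SD. Day 3 spans 2.72% to 27.0%, and the last 3 groups are all at 0.

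As a description of the spread in this share, the variance between gastruloids was 13.2 times the binomial sampling variance at day 3, 16.6 times at day 3.5 and 6.13 times at day 4. At day 3 the lanes A and B, which split the same cell suspension, gave shares of 10.8% each over all cells, and over the 24 gastruloids the shares in lane A and lane B correlated with r = 0.805 (permutation p = 2.0e-05) and rho = 0.729 (p = 0.00012), and r = 0.739 without the 2 gastruloids farthest from the median. The separate 10X lane of day 3 held 20.8% (636 of 3058 cells, exact 95% interval 19.4 to 22.3). That lane pooled gastruloids with no record of each, so its gap to MULTI-seq 3 has no replicate check.

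The day 3 share moved with the makeup of the rest of the gastruloid. Each other type was taken as a percent of the cells that are not Early Nascent Mesoderm, and 8 types were tested over the 24 gastruloids. Early Neurectoderm (14.7 ± 9.12% of the other cells) was lower where Early Nascent Mesoderm was higher, with r = -0.824, rho = -0.885 and r = -0.783 without the 2 gastruloids farthest from the median (permutation test, adjusted p = 8.0e-05 for r and 4.0e-05 for rho). Caudal Neurectoderm ran the same way with r = -0.569, rho = -0.70 and r = -0.522 (adjusted permutation p = 0.00588 and 0.00066). Anterior Primitive Streak was higher where Early Nascent Mesoderm was higher, at r = 0.772, rho = 0.867 and r = 0.830 (adjusted permutation p = 8.0e-05 and 4.0e-05), and so was Early Posterior PSM, at r = 0.715, rho = 0.733 and r = 0.752 (adjusted permutation p = 0.000347 and 0.000507). The smallest p that these resamples can give is 1e-05 before adjustment.

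Primitive Streak, the largest type with 64.4 ± 10.2% of the other cells, gave r = 0.207, rho = 0.353 and r = 0.393 (adjusted permutation p = 0.444 and 0.124), and its sign changed with the denominator and with the lane, to -0.279 as a percent of all cells and -0.110 in lane B alone. Epiblast (r = -0.372, adjusted permutation p = 0.117), PGCs (0.174) and Caudal Epiblast (-0.124) did not pass either, but Epiblast passed as a percent of all cells (r = -0.470, adjusted permutation p = 0.0321). In lane B alone and lane A alone, r was -0.776 and -0.757 for Early Neurectoderm, 0.728 and 0.698 for Anterior Primitive Streak, 0.617 and 0.729 for Early Posterior PSM, and -0.457 and -0.575 for Caudal Neurectoderm. Types of 1 gastruloid share its cells and their total, so the 4 relations are not independent of each other.

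**Figure D3:**
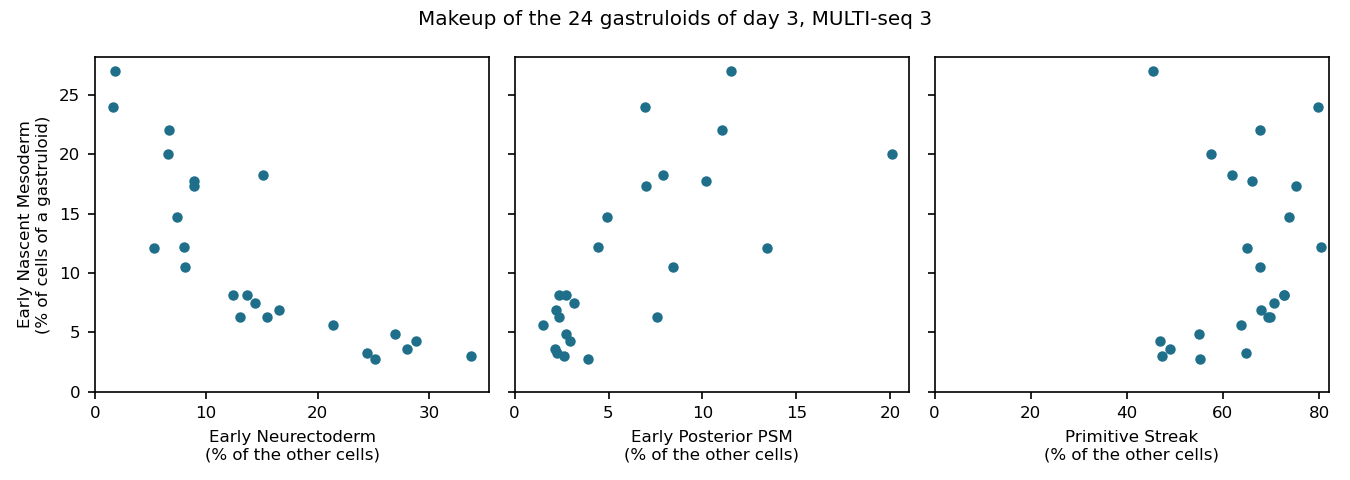
Early Nascent Mesoderm in percent of the cells of a gastruloid (y axis) against 3 other types in percent of its remaining cells (x axes), for the 24 gastruloids of day 3. Early Neurectoderm runs down from left to right (r = -0.824), Early Posterior PSM up (r = 0.715), and Primitive Streak shows no clear slope (r = 0.207).

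The cells themselves were then compared along that axis, to ask whether Early Nascent Mesoderm cells differ with the neurectoderm share of the gastruloid around them. No gene passed: 0 of 6142 (0.0%) had an adjusted p under 0.05 in edgeR's quasi-likelihood test with Benjamini-Hochberg adjustment, and 461 had an unadjusted p under 0.05. Per 10 percentage points of Early Neurectoderm, Mesp1 changed by -0.25 ± 0.10 (SE) on the log2 scale (adjusted p = 0.528, edgeR), Mixl1 by -0.07 ± 0.07 and Snai1 by -0.02 ± 0.09. The smallest adjusted p was 0.0848, for the membrane linker gene Ezr (0.37 ± 0.08). Unadjusted p in edgeR was under 0.05 for 5 of 8 epithelial, 6 of 13 nascent and lateral mesoderm and 5 of 10 streak genes. It was for 0 of 10 FGF targets, 0 of 8 Notch and 0 of 12 glycolysis genes, beside the 461 of 6142. Median slopes of the epithelial, mesoderm and streak lists were 0.25, -0.03 and 0.10, against 0.005 over all genes. Some genes are in more than 1 list, and no list was tested as a set. Of 10 other settings 5 called 2 to 9 genes (DESeq2 called 3). The setting with 6 calls took the Early Nascent Mesoderm share in place of the Early Neurectoderm share. With counts drawn for a fold of 1.5 per 10 points the test recovered 99.5% of 200 changed genes. That slope is steeper than those of the markers and Ezr above. Smaller slopes were not simulated, so how many of them the test would miss is not known.

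From day 3 to day 3.5 the cells changed broadly, though the 2 days were captured in different pools, so day and pool cannot be told apart. Of 6881 genes, 3238 (47.1%) passed edgeR's quasi-likelihood test over 24 and 7 gastruloids, 1601 higher (23.3%) and 1637 lower (23.8%). Without TMM scaling 3356 passed with 2443 higher, as the median of all genes moved by 0.14. Early Nascent Mesoderm cells of day 3.5 also carried more UMIs, 35512 to 44150 per cell over gastruloids against 25539 to 33121 at day 3, without overlap. With UMIs per cell and the mitochondrial percent as covariates, 887 genes passed, 11.5% of those tested, and 805 of them were among the 3238. As UMIs per cell did not overlap between the days, this fit cannot separate day from depth well. A call lost with the covariates is therefore no measure of a smaller change. The gastruloids also differed in makeup: the 7 of 16 at day 3.5 with at least 5 such cells held 0 to 5.32% Early Neurectoderm and 11.2 to 67.9% Early Posterior PSM among their other cells, against 1.60 to 33.8% and 1.49 to 20.1% at day 3. The part of makeup in these changes was not tested.

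Pou5f1 ran from 385 over 518 to 620 CPM (lowest, median, highest gastruloid) at day 3 and from 46.8 over 65.7 to 181 at day 3.5, with no overlap, a log2 fold change of -2.80 ± 0.16 (adjusted p = 2.62e-15, edgeR). L1td1, an RNA-binding gene of pluripotent cells, fell by 3.43 ± 0.36 and Fgf5, an FGF ligand of the epiblast, by 1.44 ± 0.18. Of the 12 epiblast genes 7 were tested, 0 rose and 4 fell, all of them also with the covariates. Of 14 primitive streak genes 10 were tested, 0 rose and 6 fell, of which 1 passed with the covariates, with a median of -0.50 against 0.004 over all genes. Of all genes 23.8% fell, and 805 of the 3238 called in either direction passed with the covariates. Fst, which encodes the activin inhibitor follistatin, ran from 899 to 2091 CPM at day 3 and from 333 to 731 at day 3.5, again with no overlap (-1.67 ± 0.16). T went from 222, 365 and 511 CPM to 164, 218 and 313, with overlapping ranges (-0.80 ± 0.13, adjusted p = 8.61e-06, edgeR). Fgf8, the main FGF ligand of the streak, fell by 1.14 ± 0.17. With the covariates above, the calls of Fst, Pou5f1 and L1td1 stood, and those of T (adjusted p = 0.0536, edgeR), Fgf8 (0.123) and Evx1 (0.649) did not.

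Among the markers of the name, Mesp1 fell from 147, 453 and 730 CPM to 195, 250 and 291 (-1.03 ± 0.17, adjusted p = 1.28e-05, edgeR). The day 3.5 gastruloids lay inside the lower part of the day 3 range. Mixl1 fell by 0.39 ± 0.12 (adjusted p = 0.00663, edgeR), a call lost with the covariates (0.769), without TMM and without lane C, and Snai1 did not pass (-0.20). Msgn1 was not tested for its low counts and averaged 7.45 ± 2.53 CPM at day 3.5.

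Of 16 nascent and lateral mesoderm genes 15 were tested, 9 rose and 2 fell (median 0.57), and of 18 presomitic and somitic genes 8 were tested, 6 rose and 0 fell (median 1.09), where 23.3% of all genes rose and 23.8% fell. With the covariates 4 of the 9 and 4 of the 6 that rose passed, and 0 of the 2 that fell, beside 805 of the 3238 called over all genes. Kdr, the VEGF receptor gene of vascular and cardiac precursors, ran from 0 over 7.78 to 26.8 CPM at day 3 and from 30.9 over 68.6 to 117 at day 3.5, without overlap (2.75 ± 0.26, adjusted p = 3.99e-10, edgeR). Aldh1a2, which makes retinoic acid, was at 0 in the median day 3 gastruloid and at most 11.03 CPM, and ran from 40.3 to 130 CPM at day 3.5 (4.69 ± 0.33). The cardiac myosin light chain gene Myl7 ran from 0 to 15.8 CPM and then from 42.5 to 114 (3.55 ± 0.27). Lmo2 rose by 2.56 ± 0.18, Tbx6 by 1.33 ± 0.13 and Foxc1 by 1.13. Lefty2 rose from 7.83, 52.1 and 145 CPM to 197, 229 and 325 (1.66 ± 0.23), a call lost with the covariates (adjusted p = 0.137, edgeR), as were those of Pdgfra (0.673) and Cyp26a1 (0.341).

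Genes of the epithelial to mesenchymal transition changed on both sides. Of 18 genes of the mesenchymal side 14 were tested, 10 rose and 0 fell, beside 23.3% and 23.8% of all genes. With the covariates 3 of the 10 passed, beside 805 of the 3238 called over all genes. Fn1 ran from 453 over 597 to 877 CPM and then from 1258 over 1905 to 2132 (1.37 ± 0.09, adjusted p = 1.27e-13, edgeR), and the collagen gene Col4a1 had a median of 47.6 CPM, at most 67.6, and then of 147, at most 179 (1.52 ± 0.09). Neither gene overlapped between the days. Cdh2 rose by 0.57 and Sparc, a matrix glycoprotein gene, by 1.56. Of 17 epithelial genes 8 were tested, 1 rose (the laminin gene Lama1, 1.52) and 4 fell, of which Lama1 and 2 that fell passed with the covariates. The splicing regulator Esrp1 fell by 2.82 ± 0.35, from a median of 17.3 to 2.5 CPM, and Epcam by 1.93 ± 0.21, from 138 to 36.1. Cdh1 fell by 1.07 ± 0.24 from a median of 15.6 to 6.88 CPM, with overlapping ranges, and lost its call with the covariates (adjusted p = 0.434, edgeR).

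**Figure D4:**
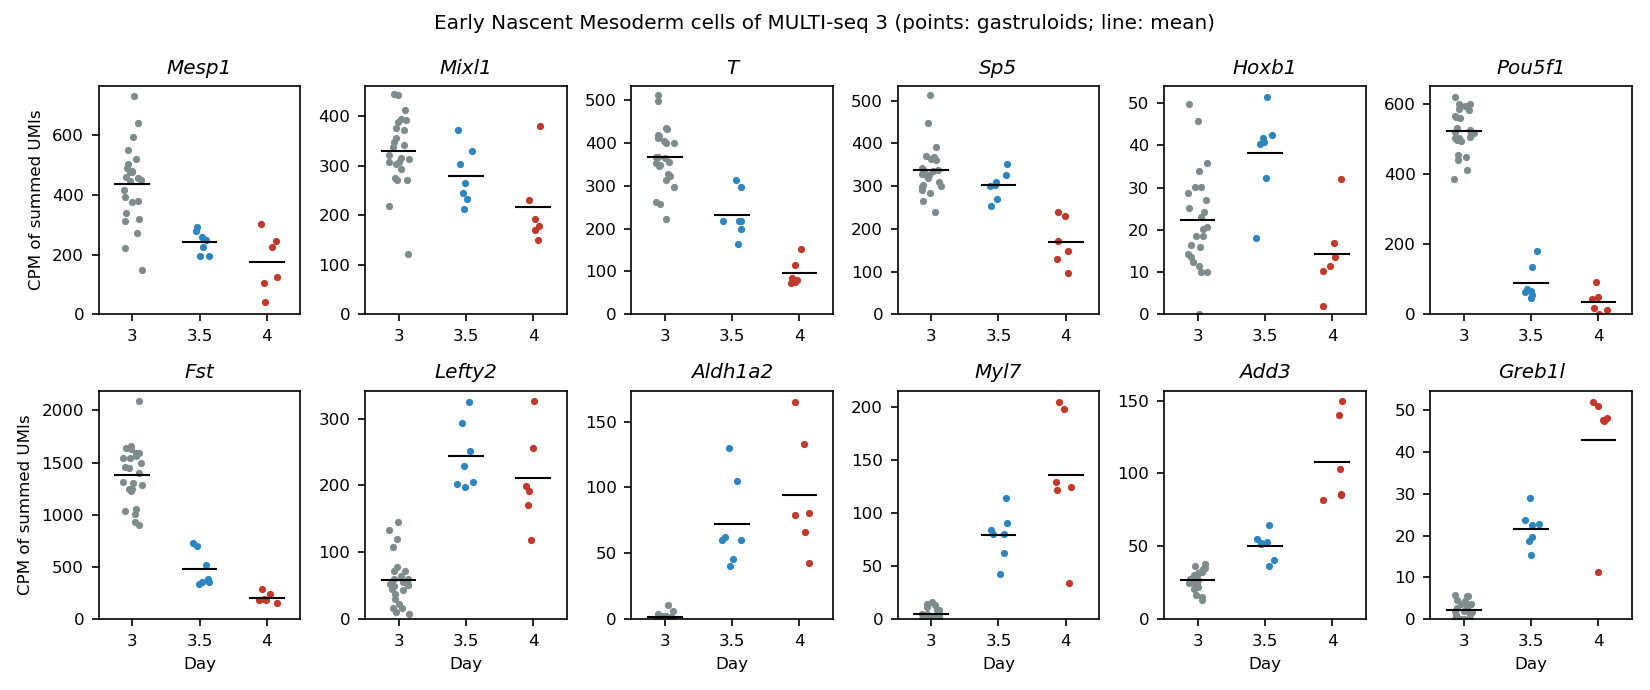
Levels of 12 genes in Early Nascent Mesoderm cells, in CPM of summed UMIs (y axis), by day of MULTI-seq 3 (x axis); points are gastruloids and lines their mean. Pou5f1 and Fst drop between day 3 and day 3.5, Aldh1a2, Myl7 and Lefty2 climb, and T and Sp5 are lowest at day 4.

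Signalling genes were split by role. Of 16 Wnt receptors and transducers 12 were tested, 8 rose and 0 fell, among them the receptor genes Fzd1 (1.20) and Fzd3 (1.03). Wnt targets and feedback inhibitors went both ways: of 17, 10 were tested, 5 rose and 3 fell, with the inhibitors Dkk1 (1.46), Nkd1 (1.47) and Sfrp1 (2.16) up and T, Sp5 (-0.28) and Sp8 (-0.79) down. With the covariates, 5 of the 8 Wnt receptors and transducers that rose passed, as did 3 of the 5 Wnt targets that rose, Sfrp1 not among them, and 0 of the 3 that fell. The call of Sp5 was lost also without TMM and without lane A of day 3. Of 8 FGF ligands 4 were tested, 1 rose (Fgf10) and 3 fell, and of 11 FGF targets 10 were tested, 2 rose and 5 fell, including the phosphatase gene Dusp6 (-1.14) and the ETS gene Etv4 (-0.61). Of 14 Notch genes 9 were tested, 7 rose and 1 fell: the ligand gene Dll1 rose by 0.97 ± 0.09 and the feedback regulator Nrarp by 1.88. With the covariates the FGF ligands kept 1 rise and 1 fall, the FGF targets 1 rise and 3 falls, and the Notch genes 5 rises and 0 falls. Of 18 glycolysis genes 12 were tested, 0 rose and 8 fell by small amounts, such as Eno1 (-0.59) and Gapdh (-0.37), and 2 of the 8 passed with the covariates. Without TMM scaling Tpi1, Pgk1, Pgam1 and Pkm of that list lost their call, and Pkm changed sign. Of 38 S phase genes tested 8 were higher and 8 lower, and of 51 G2 and M phase genes 11 were higher and 10 lower, beside 23.3% higher and 23.8% lower over all genes. With the covariates 0 and 1 of these S phase genes passed, and 1 and 4 of these G2 and M phase genes. Over all genes the covariate fit kept 805 of the 3238 calls, and it called 445 higher and 442 lower of 7687 genes.

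The change in Early Nascent Mesoderm was then set beside that in Primitive Streak cells of the same 24 and 7 gastruloids, in 1 model with a term for each gastruloid that gives the difference. The change of each type comes from a fit of that type alone, so the changes need not subtract to the difference. This comparison was added after the data were seen, and since both types are named from expression at each day, the values are a description with no test. Pou5f1 changed by -2.80 in Early Nascent Mesoderm and by -0.80 in Primitive Streak (difference -2.0 ± 0.16, SE). Fst changed by -1.67 and -0.02 (difference -1.65 ± 0.17), and Esrp1 by -2.82 in the first type and by a value that rounds to 0.00 in the second. The values of Cdh1 were -1.07 and 0.74 (difference -1.98 ± 0.25). Opposite signs were also seen for Sp5 (-0.28 and 0.75), T (-0.80 and 0.17) and Fgf8 (-1.14 and 0.29).

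Eomes changed by -0.17 in Early Nascent Mesoderm and fell more in Primitive Streak, by -1.45 (difference 1.32 ± 0.26). Gsc had opposite signs, with 0.25 and -2.07 (difference 2.39 ± 0.33). The values in Early Nascent Mesoderm were above those in Primitive Streak for Myl7 (difference 3.31 ± 0.42), Lmo2 (2.55 ± 0.29), Col4a1 (1.24 ± 0.13) and Fn1 (1.02 ± 0.13). Fgf5 changed by -1.44 and -1.73 (difference 0.32 ± 0.28) and Tbx6 by 1.33 and 1.89 (-0.55 ± 0.28). Among the markers of the name, Mesp1 changed by -1.03 and -0.18 (-0.74 ± 0.42), Mixl1 by -0.39 and -1.02 (0.68 ± 0.21) and Snai1 by -0.20 and 0.21 (-0.45 ± 0.21).

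**Figure D5:**
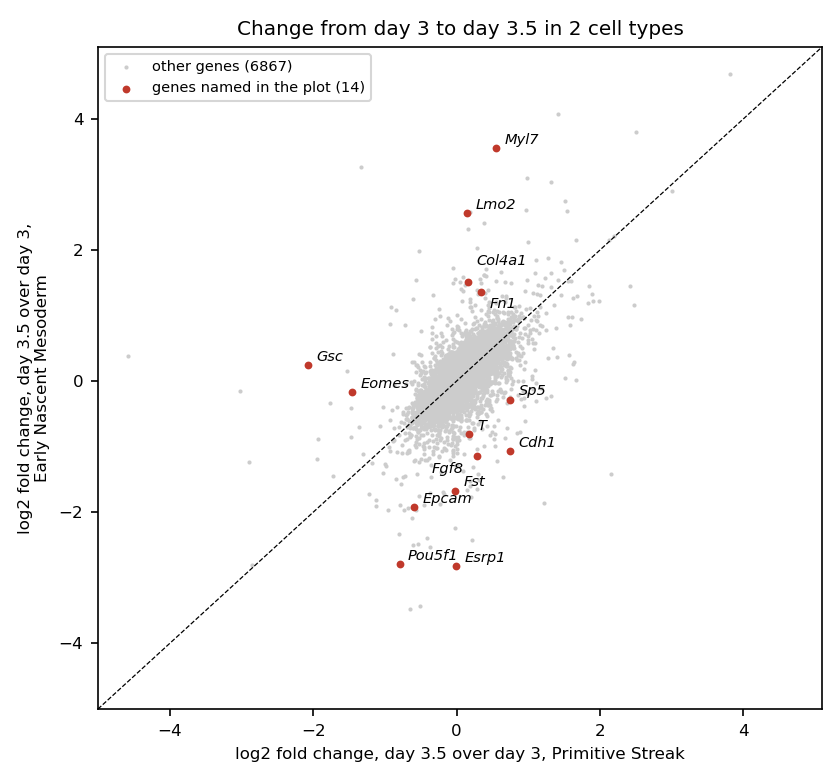
Log2 fold change from day 3 to day 3.5 in Early Nascent Mesoderm (y axis) against that in Primitive Streak (x axis) for 6881 genes; red points are the 14 genes labelled and the dashed line marks equal change. Epcam, Esrp1, Fst and Pou5f1 lie below the line, Myl7, Lmo2, Gsc and Eomes above it.

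From day 3.5 to day 4, where both days shared a pool and its lanes, 6 gastruloids with 68 cells were set against 7 with 163. In edgeR's quasi-likelihood test 49 of 5628 genes (0.871%) passed, 19 higher (0.338%) and 30 lower (0.533%), and 633 had an unadjusted p under 0.05. Without TMM scaling 49 passed with 27 higher. Leaving out lane A left 20 calls and lane D 22. With counts drawn at a fold of 2, the test recovered 92% of 200 changed genes, and at a fold of 1.5 it recovered 56.5%.

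T and Sp5, both Wnt targets of the streak, fell at this step. T ran from 164 over 218 to 313 CPM at day 3.5 and from 72.4 over 82.8 to 152 at day 4, without overlap (-1.16 ± 0.22, adjusted p = 0.0303, edgeR). Sp5 ran from 252 over 303 to 351 and from 96.8 over 160 to 240, also without overlap (-0.78 ± 0.14, adjusted p = 0.0131, edgeR). Hoxb1, an anterior Hox gene that opens early in the streak, went from 18.0, 40.7 and 51.5 CPM to 2.04, 12.5 and 32.1 with overlapping ranges (-1.51 ± 0.31, adjusted p = 0.00793, edgeR). The FGF receptor gene Fgfr1 fell by 0.43 ± 0.10 with no overlap (164 to 229 and then 120 to 156 CPM). Of 10 alternatives T passed in 5 (adjusted p up to 0.285, edgeR), Sp5 in 6, Hoxb1 in 8 and Fgfr1 in 3. T and Sp5 were the members that fell both of the 9 streak genes and of the 7 Wnt targets tested, with 0 higher in each list. Eomes, Lhx1 and Gsc, at 304 ± 89.6, 980 ± 288 and 145 ± 62.8 CPM at day 4, did not pass.

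The genes of lowest p were outside the lists. Aplp2, a relative of the amyloid precursor gene, ran from 288 over 367 to 438 CPM and then from 175 over 216 to 273 (-0.79 ± 0.10, adjusted p = 3.77e-05, edgeR). Add3, which caps and links actin filaments, ran from 36.1 over 52.3 to 64.5 CPM and then from 81.5 over 94.4 to 149.9 (1.02 ± 0.15, adjusted p = 3.77e-05, edgeR). Schip1 rose from 13.1, 18.5 and 26.5 CPM to 28.5, 46.5 and 91.0 (1.31 ± 0.21) and the tubulin gene Tuba1a from 107, 157 and 186 to 202, 264 and 337 (0.71 ± 0.11). None of these 4 overlapped between the days, but they were picked for a low p in these same sums, so this adds no support. Greb1l rose from 15.3, 22.5 and 29.1 CPM to 11.4, 47.9 and 52.1 (1.02 ± 0.21), with 1 of 6 day 4 gastruloids below all of day 3.5. The phosphatase gene Ptprj (-1.49 ± 0.31), the actin-binding gene Limch1 (-1.11 ± 0.21) and the guanine exchange factor gene Dock11 (-0.61 ± 0.11) fell. Aplp2, Cirbp, Dock11, Gnas, Schip1 and Tuba1a passed in all 10 alternatives.

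No marker of the name passed at this step. Mesp1 changed by -0.47 (242 ± 38.0 to 174 ± 99.0 CPM, adjusted p = 0.579, edgeR), Mixl1 by -0.48 (280 ± 57.6 to 217 ± 84.5, 0.403) and Snai1 by -0.02 (66.3 ± 12.6 to 67.0 ± 13.1, 0.989), while Msgn1 was at 0 in 5 of 6 day 4 gastruloids and was not tested. The 14 nascent and lateral mesoderm genes tested gave 0 calls, as did 14 mesenchymal, 5 epithelial, 9 Notch and 12 glycolysis genes, where 0.871% of all genes were called. Lefty2 (243 ± 49.5 to 210 ± 72.0 CPM), Fn1 (1758 ± 318 to 1727 ± 324) and Pou5f1, at 0 to 90.8 CPM at day 4, were among the genes of large change before day 3.5 that did not pass after it.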

How the data were processed

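The authors' deposited matrices hold UMI counts per gene and cell barcode for 32285 genes, whole numbers made with Cell Ranger 6.0.0 on mm10 per the submitters' processing notes, which also name Seurat. Cell types, embryo mapping, days and gastruloid calls were read from the authors' deposited cell table of 77683 cells, of which 9 had no barcode in the matrices. The sources used here do not give how the authors filtered and clustered the cells, and no doublet caller was run: cells called doublets by their MULTI-seq barcode belong to no gastruloid and stayed out of every comparison between gastruloids. The fraction with which the authors' deposited table scores each mapping was not used. The members and gene lists were chosen with earlier results of these data known.

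Counts were summed per gastruloid over its lanes, and gastruloids with at least 5 Early Nascent Mesoderm cells entered the gene tests (127697 to 2216076 UMIs per sum). Genes were tested with edgeR 4.0.16 (TMM, filterByExpr, robust glmQLFit, glmQLFTest), with Benjamini-Hochberg adjustment over all genes tested and a threshold of 0.05. Changes are log2 fold changes with their standard errors. Overlap of ranges between days was worked out for named and list genes only, with no share over all genes. Shares of cells were compared over gastruloids with at least 30 cells by two-sided permutation tests with 100000 resamples, adjusted over the types that averaged 1% or more. Cell types were compared within gastruloids as differences in log2(CPM + 10) with no test, since cell type names rest on gene expression. Named genes were the 4 markers, list members that passed, and the 10 of lowest p in each direction. For comparisons with other types they were the 15 largest differences in each direction and list members past 1. The model that sets the changes of 2 types side by side, with no test, and the comparison with Anterior Primitive Streak, were added after seeing the data; the genes named for them, and the other genes set beside these, were chosen with their values known. The gene tests were tested on simulated counts with 200 changed genes. Alternatives were DESeq2 1.42.0, no TMM, no filter, 3 or 10 cells, quality covariates and each lane left out in turn. The earlier days (3 and 3.5) of MULTI-seq 2 are not analysed here. Promoters were read from RefSeq on GRCm38.p6.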

Additional observations from a re-analysis of the deposited data

Results flagged for a closer look

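Among 50 groups of 4 to 10 gastruloids (named genes at days 3.5 and 4), 5 held 1 gastruloid far from the others. The cutoffs flag about 1 in 20 groups of normally distributed values. Low counts are not so distributed, and the groups of 1 day share gastruloids, so no excess over chance can be read from this number. At day 4, 1 gastruloid of 6 had 380 CPM of Mixl1 (the others 149 to 230), 1 had 5.69 of Msgn1 (the others 0), 1 had 11.4 of Greb1l (the others 47.4 to 52.1) and 1 had 51.6 of Cdh1 (the others 0 to 12.2). At day 3.5, 1 of 7 had 377 CPM of Lhx1 (the others 770 to 971). With the others at 0, any single count of Msgn1 would be flagged. The smallest day 4 sum held 175684 UMIs from 6 cells, so values of a few CPM there rest on few UMIs.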

How the results depend on the processing

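No paired analysis was possible because each gastruloid was sampled on 1 day, the replicate labels mark lanes of a pool, and barcode numbers that recur between pools name different gastruloids; cell types were compared within gastruloids. Of the alternatives to the values that answer a comparison, 73 stayed by the rule of their kind, 10 moved, 2 changed sign and 2 gained a call. For counts of genes that rule asked only for a similar number, not for the same genes or directions. From day 3.5 to day 4, without lane B, 25 of 41 calls were shared with the main 49. For single genes and types, 2775 stayed, 209 lost a call and 1 gained a call (Epiblast as a percent of all cells, r = -0.470). A further 98 moved and 14 were counted as changed in sign. Untested differences between types of under 1 in size were counted as moved where their sign changed. Differences in change from Primitive Streak were counted only as stayed or moved, whatever their sign. The causes were not tested. Called genes from day 3.5 to day 4 numbered 178 without the filter, and 20 to 46 with a lane left out. From day 3 to day 3.5 they numbered 887 with quality covariates and 2644 to 2959 with a lane left out. Along the neurectoderm share 3 passed with DESeq2, 2 with at least 10 cells, 9 without the filter and 4 with ranks. With the Early Nascent Mesoderm share in its place 6 passed. Against Anterior Primitive Streak 73 genes passed with at least 10 cells and 65 to 67 with a lane left out. The Primitive Streak relation was -0.279 as a percent of all cells and -0.110 to 0.362 with a lane left out, and that of Caudal Epiblast -0.0547 to 0.00117. The share difference of day 4.5 from day 4 was -0.945 on the centred log ratio scale (adjusted permutation p = 0.0356) and -3.30 in edgeR (adjusted p = 0.00142), and -1.13 to -1.09 points with a lane left out. With a lane left out, the share difference of day 4 from day 3.5 was -2.47 to -1.97 points. Signs changed from day 3 to day 3.5 for Blm (-0.25), Evx1 (0.26) and Snai1 (0.0875) with quality covariates and for Pkm (0.0028) without TMM. Snai1 from day 3.5 to day 4 was 0.0142 without TMM and -0.19 to 0.0798 with a lane left out. The neurectoderm slope of Snai1 changed sign with DESeq2 (0.0033). With a lane left out the slopes ranged from -0.11 to 0.0292 for Mixl1 and from -0.23 to 0.17 for Snai1. On the Early Nascent Mesoderm share, taken in place of the neurectoderm share, slopes were positive for Mesp1 (0.24), Mixl1 (0.00373) and Snai1 (0.0381). The 2 shares ran in opposite directions (r = -0.824), so these signs, counted above as changes, are not reversals. The day 4 sums held 6 to 17 cells and those of day 3.5 8 to 45.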

Other observations

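The 10X lane of day 3 held 636 Early Nascent Mesoderm cells from pooled gastruloids that belong to no comparison above. Its summed cells had 240 CPM of Mesp1, against 488 and 448 in the day 3 lanes A and B of MULTI-seq 3, 556 of Mixl1 against 335 and 353, and 337 of Lefty2 against 69.8 and 76.5. The median cell of that lane had 17136.5 UMIs and 4.75% mitochondrial UMIs, so depth and experiment moved with these levels, and their part was not tested. Of its cells 83.3% mapped to nascent mesoderm, against 83.7% in MULTI-seq 3.

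In the pool of days 3.5 and 4, 50 Early Nascent Mesoderm cells had no single day in the deposited table and stayed out of the comparisons; 94.0% of them mapped to nascent mesoderm.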
